A study of Mus musculus with 4 samples.

Results

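On an array of 33012 probes, 79 probes read below detection on the parental mouse melanoma line B16 and clearly above it on every line passaged through mice. A probe was taken when its signal-to-noise ratio (S/N, the array analyzer's ratio of a spot's signal to its noise) was under 3 on B16 and at least 6 on each of B16-RI, B16-RII and B16-RIIL, with a quality flag of at most 5000 on all 4 arrays. These limits were met by 84 probes, and the rule left out 7 named genes, which took away 5 probes. The 79 are 0.248% of the 31894 probes with acceptable flags, and 0.45% of the 17570 of these that were under the limit on B16. Of the 79 probes, 47 carried a gene symbol and stood for 46 genes, because Spp1 had a pair of probes, and 32 carried none. The S/N of B16 and of the passaged lines chose these probes, so the difference from B16 is given throughout as a description, without a test.

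All lines share the C57BL6 background and descend from B16F1 cells. B16 was the parental culture, with 0 rounds of injection into mice. B16-RI was grown out of lymph node metastases of mice that had been injected once into the skin of the back, which is 1 round. B16-RI was then injected again, and after these 2 rounds B16-RII was grown out of lymph node metastases and B16-RIIL out of lung metastases. All 4 lines were cultured in DMEM with fetal bovine serum, so the RNA comes from cells in a dish and not from a metastasis, and each line's RNA pooled different passage numbers. Digoxigenin-labelled cRNA was hybridized to Applied Biosystems mouse arrays that are read by chemiluminescence. The labels give 1 array per line and second arrays in the table, which match no label, were not used, so no value below has a replicate error and no test between lines was run.

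Cells that spread from a melanoma leave the primary tumor, enter lymphatic or blood vessels and grow in a distant organ. Proteins known for a part in these steps include secreted matrix proteins such as osteopontin, the proteases that cut the matrix, and the integrins and CD44 that bind osteopontin. In bulk RNA a signal on the array can come from many cells at a low level or from few cells at a high level, and these cannot be told apart here.

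The deposited normalized signal scales the raw signal by 1 of 2 constants on each array, for 2 sets of probes. Over the 10014 probes with an S/N of at least 6 on all 3 passaged arrays, the median log2 difference of B16-RII from B16-RI was 0.03 in the first set and 0.38 in the second, so an order among the passaged lines given below for a single probe, where it rests on differences of that size, can turn with the scaling. The normalized signal had a median over the 79 probes of 1.41 for B16, 5.63 on B16-RI, 6.32 on B16-RII and 6.02 on B16-RIIL. The S/N had a median of 2.05 for B16, 8.90 on B16-RI, 11.75 on B16-RII and 11.74 on B16-RIIL. For 30 probes the lowest of the passaged S/N values was under 7, so many passed the limit narrowly. B16 was below detection for them, so each fold against B16 is called a lower bound and written as at least. It was taken over the higher of the probe's own B16 signal and 0.31, the lowest B16 signal that counted as detected. Only 1 of the 79 had a B16 signal under 0.31, so for the others it is the plain ratio to an undetected reading. The bound does not cover noise in that reading, so a large fold over a weak B16 signal is uncertain in size. By this bound 64 probes were at least 2-fold above B16 on each single passaged array, against 5.01% of 31894 probes on B16-RI, 6.67% on B16-RII and 6.51% on B16-RIIL. On all 3 arrays together 55 probes were at least 2-fold above B16, against 1.17% of all probes, and nothing is read from either count, since the rule used the same contrast. On the log2 scale the bound had a median of 2.02 for B16-RI, 2.04 for B16-RII and 1.93 for B16-RIIL, while these 10014 probes had a median difference from B16 of 0.24, 0.45 and 0.25. At least 4-fold on all 3 arrays were 34 probes, at least 8-fold 16 and at least 16-fold 7, against 0.279%, 0.069% and 0.0282% of all probes. These counts and those by function below describe the chosen probes in the same way, and nothing is read from them.

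**Figure D1:**
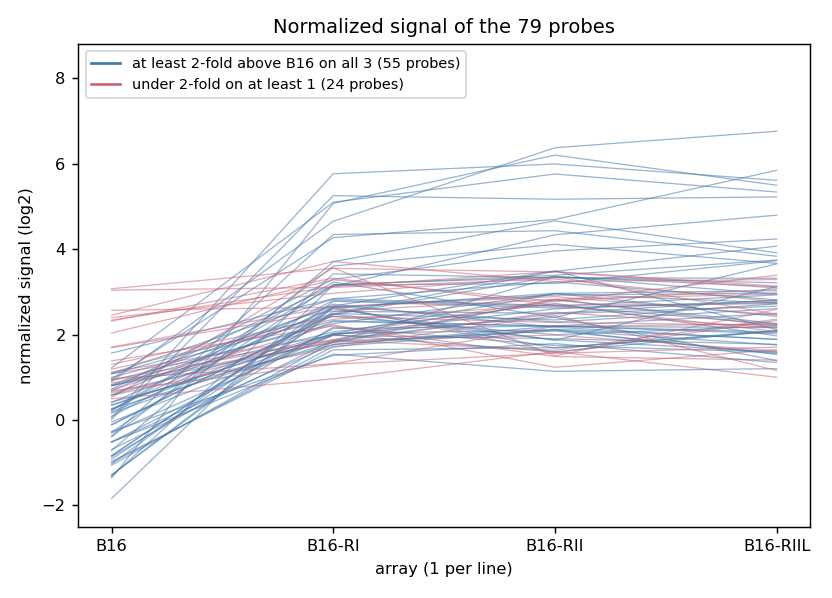
Normalized signal (log2) of the 79 probes on the 4 arrays, 1 line per probe and 1 array per cell line. Blue lines are the 55 probes at least 2-fold above B16 on all 3 passaged arrays, and red lines are the 24 probes under 2-fold on at least 1 of them, whose B16 signals were all at or above 1.41, the median of the 79.

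The S/N on B16 and the bound both rest on the B16 signal, so the counts that follow describe the probes and nothing is read from them. The 21 probes with a B16 S/N under 1 were all at least 2-fold above B16 on all 3 arrays, and 19 of them at least 4-fold. Of the 15 probes with a B16 S/N from 1 to 2, 12 were at least 2-fold above B16 on all 3 arrays, and of the 43 from 2 to 3 only 22 were. Under 2-fold on every passaged array were 7 probes, and 3 of these had a lower signal than on B16 on at least 1 array. Just inside the limit on B16 stood Gpr49, E2f7 and Sgk3, with S/N of 2.99, 2.98 and 2.97, and just outside it Knsl7, Hkr3 and Tm7sf1, with 3.0, 3.03 and 3.05. At the limit on the passaged arrays, the lowest S/N was 6.08 for Rp9h, 6.08 for Pet112l and 6.11 for Commd7 inside it, and 5.93 for AB041544, 5.92 for Ppp1r12c and 5.87 for 9830160G03Rik outside it.

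**Figure D2:**
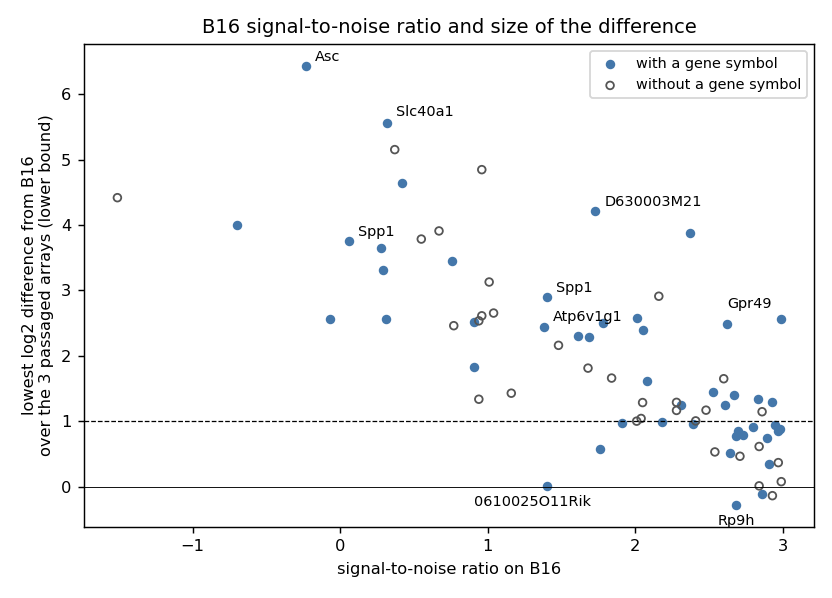
Signal-to-noise ratio on B16 (x axis) against the lowest of the 3 log2 lower bounds of the difference from B16 (y axis) for the 79 probes, filled where the probe has a gene symbol. The dashed line marks 2-fold, and all 21 probes with a B16 ratio under 1 lie above it, while probes between 2 and 3 lie on either side.

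Secreted and matrix proteins gave 6 probes of 5 genes, and 5 of the 6 were at least 4-fold above B16 on every passaged array. Spp1, which encodes the secreted phosphoprotein osteopontin, was read by a pair of probes. The first probe gave normalized signals of 1.87 for B16, 25.13 on B16-RI, 82.77 on B16-RII and 108.16 on B16-RIIL. The second gave 0.48, 3.57, 10.23 and 8.67. In both, B16 was the lowest array, B16-RI came next, and the lines of the second round were far above it. The first probe was at least 13.4-fold above B16 on B16-RI, 44.3-fold on B16-RII and 57.8-fold on B16-RIIL, and the second at least 7.44-fold, 21.3-fold and 18.1-fold. Adamts5, a protease that cuts aggrecan and related matrix proteoglycans, gave 0.49, 6.86, 6.16 and 6.72 in the same order of lines. Its 3 passaged values lay within 1.11-fold of each other and at least 12.6-fold above B16. ORF9, which RefSeq now lists as Fam3b, a secreted cytokine-like protein, gave 0.40, 10.71, 10.05 and 9.96. It was as even over the passaged lines as Adamts5, at least 24.9-fold above B16 on each. Sod3, the superoxide dismutase of the extracellular space, gave 0.53, 5.57, 3.67 and 3.02, and was highest on B16-RI. 0610025O11Rik (Fuca2), a secreted fucosidase, was the exception of the group with 8.41, 11.71, 11.04 and 8.50, at least 1.39-fold, 1.31-fold and 1.01-fold.

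Genes of immunity and interferon response gave 4 probes, and all 4 were at least 2-fold above B16 on every passaged array. Asc (Pycard), the adaptor that links inflammasome sensors to caspase-1, gave normalized signals of 0.39 for B16, 33.60 on B16-RI, 73.49 on B16-RII and 45.06 on B16-RIIL. These are at least 86.2-fold, 188-fold and 116-fold, the largest bounds of all 79 probes on each array. Lrmp, a membrane protein of the endoplasmic reticulum known from lymphoid cells, gave 0.76, 12.13, 17.28 and 12.68. Its bounds were just under 16-fold on B16-RI, 22.7-fold on B16-RII and 16.7-fold on B16-RIIL. Ifi47, a GTPase induced by interferon gamma, gave 0.81, 3.98, 6.07 and 6.94. Trim47, a tripartite motif protein, gave 1.33, 6.08, 3.64 and 8.70. Ifi47 was lowest on B16, next on B16-RI, and higher on B16-RIIL than on B16-RII, its sister line of the second round. Trim47 was lowest of the passaged lines on B16-RII.

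Several of these genes, with Cd72, Map4k1 and 6330406L22Rik (Arhgap45), are best known from blood cells, so markers of such cells are given beside them. Of 7 lymphocyte markers on the array, 2 were detected on B16, 2 on B16-RI, 1 on B16-RII and 3 on B16-RIIL, with summed signals of 61.06, 70.24, 83.28 and 63.88 that came mostly from Cd79a. Ptprc, the common leukocyte antigen, and Cd3e, a subunit of the T cell receptor complex, were below an S/N of 3 on all 4 arrays, with Ptprc signals of 0.42, 0.28, 0.37 and 0.48. Cd4, a T cell co-receptor, missed detection on B16 with 2.85 and on B16-RII with 0.93, and passed it on B16-RI with 3.08 and on B16-RIIL with 3.74. Cd3g, a further T cell receptor subunit, was detected on B16-RIIL alone, with an S/N of 3.77. The 7 macrophage markers had summed signals of 10.07, 9.07, 8.40 and 8.59, with 2 detected on B16 and 1 on each passaged line. Lyz2, a lysozyme, was detected on all 4 arrays, with S/N of 10.47, 13.28, 9.4 and 17.22. Csf1r was detected on B16 alone, with an S/N of 3.13. Cd68, Cd14, Adgre1, Cd163 and Mrc1 were below an S/N of 3 on all 4 arrays. The part of blood cells in the genes above was not tested.

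The stretches before the transcription start of Spp1, Pycard and Fign are shown because these genes were low on B16 and high on all passaged lines and differ in sequence, Spp1 and Pycard with few CpG pairs in the 250 bases and Fign with many. They are written 5′ to 3′ on the transcribed gene's strand, from RefSeq on GRCm38.p6: Spp1 at chr5:104434861-104435110 (plus strand), Pycard at chr7:127993868-127994117 (minus strand) and Fign at chr2:64098039-64098288 (minus strand). Capitals mark the motifs searched on both strands, which were the E-boxes CATGTG (a form bound by MITF) and CACGTG (bound by MITF and other factors), the AP-1 site TGACTCA, the TATA box TATAAA and the CCAAT box.
Spp1: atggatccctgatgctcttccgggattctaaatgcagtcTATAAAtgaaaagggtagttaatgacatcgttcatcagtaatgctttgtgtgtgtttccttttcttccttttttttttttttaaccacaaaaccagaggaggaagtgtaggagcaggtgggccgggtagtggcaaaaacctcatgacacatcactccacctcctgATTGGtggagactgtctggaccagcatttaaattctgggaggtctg
Pycard: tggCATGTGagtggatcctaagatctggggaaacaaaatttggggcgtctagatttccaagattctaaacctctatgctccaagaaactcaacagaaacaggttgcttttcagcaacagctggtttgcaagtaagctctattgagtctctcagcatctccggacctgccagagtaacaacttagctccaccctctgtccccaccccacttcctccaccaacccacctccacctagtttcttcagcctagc
Fign: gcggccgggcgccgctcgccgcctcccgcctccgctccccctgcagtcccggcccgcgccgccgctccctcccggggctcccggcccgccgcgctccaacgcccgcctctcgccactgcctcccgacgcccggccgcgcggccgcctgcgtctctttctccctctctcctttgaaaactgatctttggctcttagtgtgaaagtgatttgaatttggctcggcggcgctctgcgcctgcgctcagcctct

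Spp1 held 3 CpG pairs, Pycard 2 and Fign 34. RefSeq's table had such a stretch for 27 of the 43 genes whose symbol was matched. Their median was 9 CpG pairs, against 12 over the 11622 genes of the array in the table, and 8 of the 27 (29.6%) held at most 4 pairs, against 25.9%. TATAAA stood in 6 of the 27 (22.2%) and in 10.9% of the array's genes, CCAAT in 11 (40.7%) and in 36.2%. CACGTG stood in 2 (7.41%) and in 7.47%, CATGTG in 1 (3.7%) and in 8.8%, and TGACTCA in 0 and in 3.91%. No motif was shared by most of the 27 genes, and a letter match is a description and not a binding site.

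Both probes for carriers and pumps were at least 4-fold above B16 on every passaged array. Slc40a1, the iron exporter ferroportin, gave normalized signals of 1.04 for B16, 54.32 on B16-RI, 63.63 on B16-RII and 48.80 on B16-RIIL. The lower bounds were 52.2-fold, 61.2-fold and 46.9-fold, with the passaged lines within 1.3-fold of each other, and its lowest passaged S/N of 43.66 was the highest such value among the 79 probes. Atp6v1g1, a subunit of the proton pump that acidifies lysosomes, gave 0.55, 4.51, 3.35 and 3.0, but a further probe of this gene read differently, as described below.

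Surface receptors and adhesion proteins gave 6 probes, 4 of which were at least 4-fold above B16 on all passaged arrays. Gpr49 (Lgr5), a receptor for R-spondins and a marker of epithelial stem cells, gave 0.93 on B16, 5.51 on B16-RI, 10.30 on B16-RII and 7.68 on B16-RIIL, at least 5.92-fold, 11.1-fold and 8.26-fold. Cd72, a receptor of B cells, gave 1.59, 8.90, 10.47 and 13.40. Cib2, a calcium- and integrin-binding protein, gave 0.62, 3.65, 5.60 and 6.33. Both were lowest on B16, next on B16-RI, and higher on B16-RIIL than on its sister line B16-RII. C030022K24Rik (Tmem116), a predicted transmembrane protein, gave 2.33, 34.19, 54.07 and 40.37, at least 14.7-fold on each passaged line. Lims2, a partner of integrin-linked kinase at focal adhesions, gave 1.44, 11.79, 2.83 and 6.02, so it was at least 8.19-fold above B16 on B16-RI but only 1.97-fold on B16-RII. Gphn, the scaffold of inhibitory synapses, gave 5.92, 6.23, 7.4 and 5.49 and stayed within 1.25-fold of B16.

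Signalling proteins gave 8 probes, of which 5 were at least 2-fold above B16 on all 3 passaged arrays and 3 at least 4-fold. Dab2, an adaptor for endocytosis of lipoprotein receptors, gave 0.82 on B16, 9.0 on B16-RI, 10.12 on B16-RII and 9.26 on B16-RIIL, at least 11-fold on each. 6330406L22Rik (Arhgap45) gave 1.65, 9.80, 15.52 and 18.83. Akap12, an anchor of protein kinase A, gave 0.70, 3.42, 4.36 and 3.71. Arhgap45 was lowest of the passaged lines on B16-RI and highest on B16-RIIL, and Akap12 was nearly level over the passaged lines. Map4k1, a kinase of blood cells upstream of JNK, gave 2.11, 5.60, 11.14 and 16.78, so B16-RIIL was 3.0-fold above B16-RI. The remaining probes stayed between 1.73-fold and 2.86-fold above B16. Glcci1, a transcript induced by glucocorticoids, gave 1.75, 5.01, 4.58 and 4.16. Pak4, a kinase acting below Cdc42, gave 2.46, 5.38, 4.86 and 4.65. These 2 genes were highest on B16-RI. Sgk3, a kinase of the phosphoinositide pathway, gave 3.23, 5.85, 7.09 and 7.71. Commd7, a COMM domain protein, gave 5.47, 13.08, 9.44 and 9.76. None of these 4 reached 4-fold on any array.

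Nuclear proteins were the largest named group with 9 probes, but 4 of them were at least 2-fold above B16 on all passaged arrays and 1 at least 4-fold. That 1 was Aqr, a helicase of the spliceosome, with 0.56 on B16, 6.18 on B16-RI, 3.21 on B16-RII and 4.27 on B16-RIIL, at least 11-fold, 5.73-fold and 7.62-fold. 1700029B21Rik (Nhej1), a factor that joins broken DNA ends, gave 1.14, 4.94, 4.58 and 4.06. Gabpa, an ETS family transcription factor, gave 1.5, 6.54, 4.50 and 3.69. Both were highest on B16-RI and lowest of the passaged lines on B16-RIIL. Ppp1r10, a nuclear targeting subunit of protein phosphatase 1, gave 2.96, 7.14, 9.38 and 7.02. Hist1h1e (H1f4), a linker histone, gave 1.82, 3.54, 5.75 and 4.45. E2f7, a repressor of E2F target genes, gave 2.28, 5.12, 6.48 and 4.19. All 3 were highest on B16-RII. AI427100 (Fancm), a DNA translocase of the Fanconi anaemia pathway, gave 5.06, 8.71, 11.10 and 8.78. D030070L09Rik (Ino80c), a subunit of a chromatin remodeller, gave 4.10, 9.72, 6.85 and 8.35. Hist1h1e, E2f7, AI427100 and D030070L09Rik were 1.67-fold to 3.16-fold above B16 over the passaged arrays, and each was under 2-fold on at least 1 of them. Rp9h (Rp9) gave 8.22, 8.59, 9.84 and 6.80, and on B16-RIIL it was lower than on B16.

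Of 4 probes for the cytoskeleton and vesicle traffic, 1 was at least 4-fold above B16 on every passaged array. Fign, a protein that severs microtubules, gave normalized signals of 1.06 for B16, 6.97 on B16-RI, 6.32 on B16-RII and 7.61 on B16-RIIL, at least 5.96-fold on each and within 1.2-fold among the passaged lines. C730015A04Rik (Exoc3l), related to the exocyst, gave 1.92, 3.69, 6.89 and 10.47. D17Ertd288e (Kank3), an ankyrin repeat protein, gave 2.18, 3.95, 7.07 and 4.58. Epb4.9 (Dmtn), an actin-bundling protein of red cells, gave 1.64, 4.68, 2.35 and 3.13. The first was highest on B16-RIIL, the second on B16-RII and the third on B16-RI. Timm9, a chaperone of mitochondrial protein import, gave 0.83, 2.85, 3.45 and 2.54. Pet112l (Gatb), of mitochondrial translation, gave 1.49, 3.25, 5.46 and 2.23. Pet112l was the more uneven, with B16-RII 2.45-fold above B16-RIIL.

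**Figure D3:**
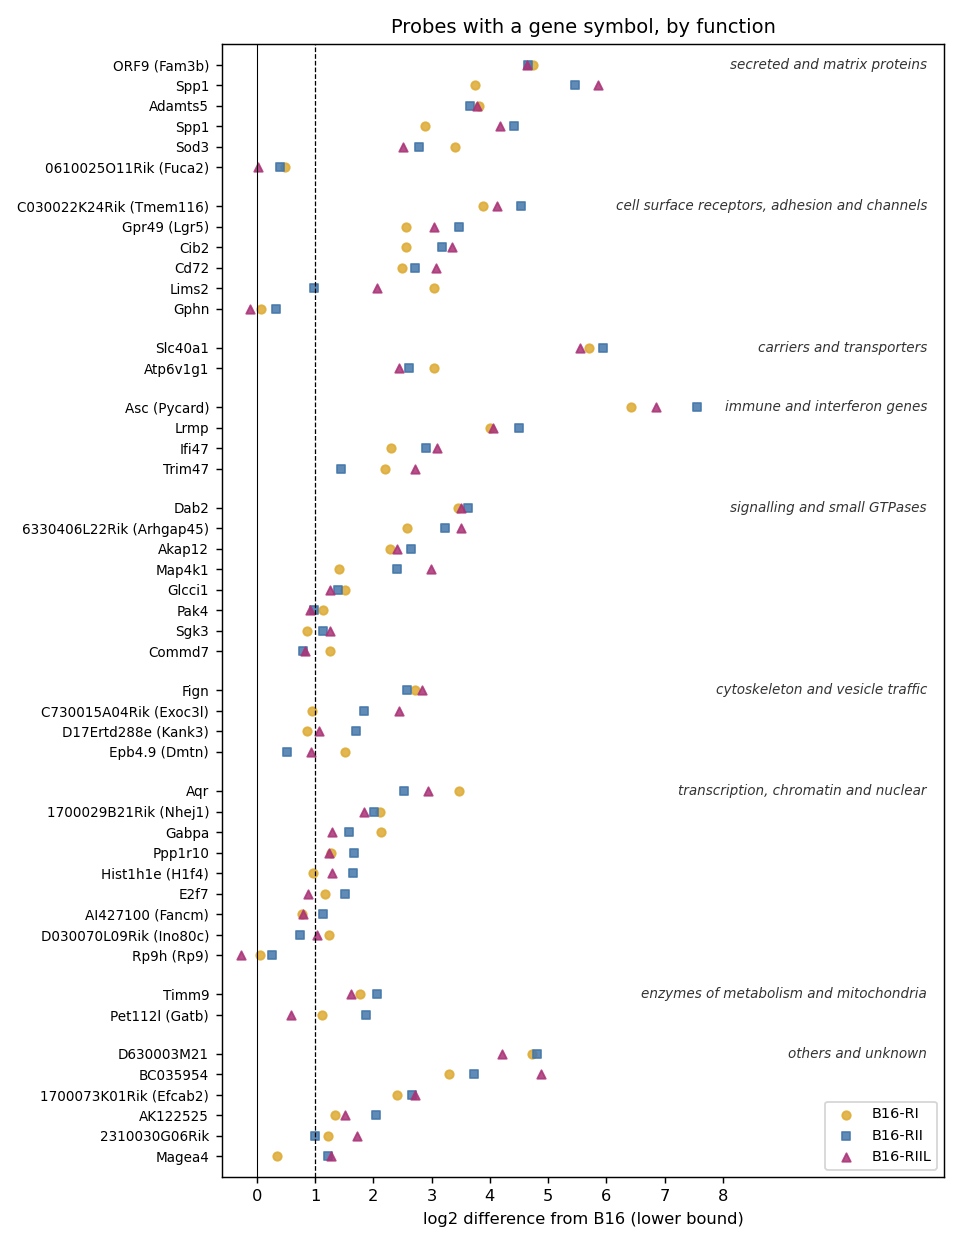
Lower bound of the log2 difference from B16 (x axis) for the 47 probes with a gene symbol, grouped by function, with 1 mark for each passaged line. The solid line marks no difference and the dashed line 2-fold, and Asc, Slc40a1 and Spp1 lie farthest to the right while Gphn, Rp9h and 0610025O11Rik lie near the solid line.

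The last 6 probes with a symbol belong to genes of other or unknown function. D630003M21, which has no match in RefSeq, gave 0.77 on B16, 20.27 on B16-RI, 21.56 on B16-RII and 14.24 on B16-RIIL, at least 18.5-fold on each. BC035954, also unmatched, gave 1.95, 19.27, 25.85 and 57.41, and was 2.22-fold higher on B16-RIIL than on B16-RII. 1700073K01Rik (Efcab2), an EF-hand protein, gave 1.19, 6.27, 7.58 and 7.84. AK122525, also unmatched, gave 1.89, 4.77, 7.78 and 5.37. Both were at least 2-fold above B16 on each passaged line. 2310030G06Rik gave 1.56, 3.64, 3.10 and 5.14. Magea4, of the MAGE family of tumor antigens on chromosome X, gave 1.95, 2.49, 4.57 and 4.74, so the lines of the second round stood above B16-RI, which was 1.28-fold above B16. Of these 6, 4 were at least 2-fold above B16 on all passaged arrays.

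The 32 probes without a symbol were at least 2-fold above B16 on all passaged arrays in 25 cases, compared with 30 of the 47 named ones, and at least 4-fold in 12. The transcript listed as mCG5232.1 gave 1.01 on B16, 38.05 on B16-RI, 35.89 on B16-RII and 37.31 on B16-RIIL, at least 35.5-fold and within 1.06-fold among the passaged lines. The transcript mCG58700.2 gave 0.28, 8.91, 9.17 and 13.24, at least 28.7-fold on each. The transcript mCG7921.1 gave 0.61, 13.03, 25.30 and 15.05. The transcript mCG61513.1 gave 1.16, 8.73, 20.17 and 27.74. The former was highest on B16-RII, and the latter was lowest of the passaged lines on B16-RI and highest on B16-RIIL. What these transcripts encode was not settled here. These 4 were chosen for the text after their values were seen.

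Over the 3 passaged arrays, 64 of the 79 probes (81%) stayed within 2-fold, against 93.9% of the 10014 probes, and 38 (48.1%) within 1.5-fold, against 66.5%. By both limits fewer of the 79 were level. These background probes were read at a much higher S/N, with medians of 35.65, 44.78 and 40.06 on B16-RI, B16-RII and B16-RIIL against 8.90, 11.75 and 11.74 for the 79, and the part of measurement noise in the shares was not tested. B16-RII was at least 2-fold above B16-RI for 5 probes (6.33%, against 1.69% of the 10014) and at least 2-fold below it for 2 (2.53%, against 0.14%). The 5 were both Spp1 probes, with 3.29-fold and 2.87-fold, mCG61513.1 with 2.31-fold, Asc with 2.19-fold and mCG4795.2 with 2.0-fold. With quantile normalization, 75th percentile scaling or each set centred by its median, both Spp1 probes and mCG61513.1 were still past 2-fold, while Asc and mCG4795.2, which lie in the second set, were not. With median scaling the count was 8, again without Asc and mCG4795.2. The 2 lower ones were Lims2, where B16-RI was 4.17-fold above B16-RII, and AK084119.1, where it was 2.13-fold above. After 75th percentile scaling or centring, 4 probes were at least 2-fold lower, these 2 with Epb4.9 and mCG1362.2.

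B16-RIIL was at least 2-fold above B16-RI for 6 probes (7.59%, against 1.71%) and below it for 0, against 1.08%. The 6 were both Spp1 probes, with 4.3-fold and 2.43-fold, mCG61513.1 with 3.18-fold, Map4k1 with 3.0-fold, BC035954 with 2.98-fold and C730015A04Rik with 2.84-fold. These 6 passed 2-fold under every scaling tried, and 1 probe became at least 2-fold lower, Lims2 with quantile normalization or 75th percentile scaling and Sod3 with centring. Between the 2 lines of the second round, B16-RIIL was at least 2-fold higher for 4 probes (5.06%, against 0.429%), namely Trim47, mCG140880, BC035954 and Lims2. It was at least 2-fold lower for 3 (3.8%, against 2.75%), namely mCG3923.2, Pet112l and AK031849.1. Centring the probe sets took Pet112l under 2-fold, and 2310030G06Rik was past 2-fold higher after centring or 75th percentile scaling. The Spp1 probes parted here in the deposited values, with B16-RIIL 1.31-fold above B16-RII on the first, in the first probe set, and B16-RII 1.18-fold above B16-RIIL on the second, in the second set. The median log2 difference of B16-RIIL from B16-RII over the 10014 probes was 0.04 in the first set and -0.44 in the second, and with each set centred B16-RIIL was 1.23-fold and 1.13-fold above B16-RII on the Spp1 probes. The median log2 difference of B16-RII from B16-RI was 0.23 over the 79 probes and 0.20 over the 10014, and for B16-RIIL against B16-RI both medians were 0.01. By the brightest array in the deposited values, 23 probes (29.1%, against 18.8%) were highest on B16-RI, 32 (40.5%, against 54.2%) on B16-RII and 24 (30.4%, against 27%) on B16-RIIL. With each probe set centred these became 30 (38%, against 40.1%), 24 (30.4%, against 27.5%) and 25 (31.6%, against 32.4%), closer to the background on each line. Median scaling kept the gap, with 17 (21.5%, against 12.7%), 36 (45.6%, against 58.5%) and 26 (32.9%, against 28.8%), so how these shares stand to the background depended on the scaling.

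**Figure D4:**
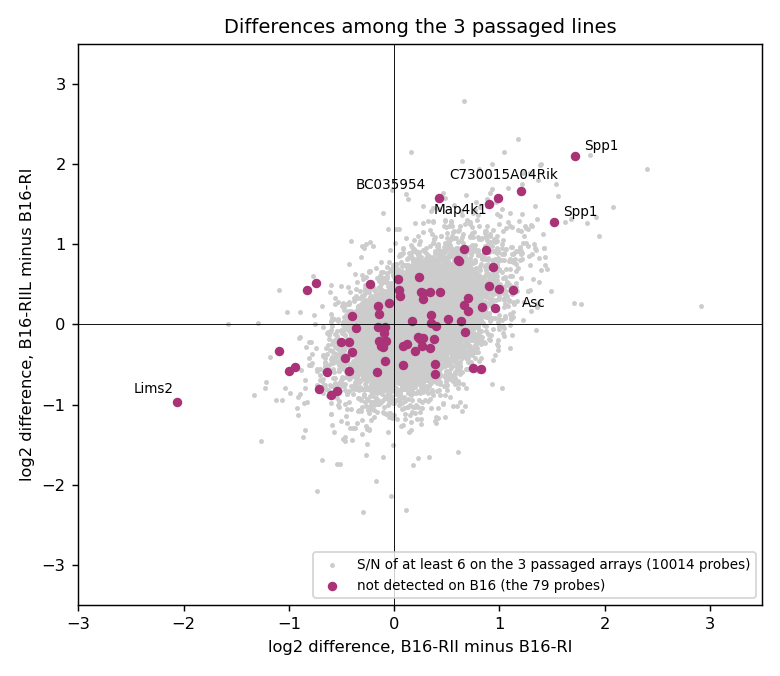
Log2 difference of B16-RII from B16-RI (x axis) and of B16-RIIL from B16-RI (y axis) for the 79 probes (purple) and the 10014 probes with an S/N of at least 6 on all 3 passaged arrays (grey). Named probes differ at least 2-fold from B16-RI on at least 1 axis, with the pair of Spp1 probes at the upper right and Lims2 at the far left.

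A further probe of the same gene gives a reading that the choice of the 79 did not use. Besides Spp1, whose probes were both chosen, 4 genes had 1 more probe each, and 3 of these 4 further probes were detected on B16. The further probe of Atp6v1g1 gave normalized signals of 148.41 for B16, 181.09 on B16-RI, 184.54 on B16-RII and 199.14 on B16-RIIL, with an S/N of 108.67 on B16. That of Glcci1 gave 9.05, 12.59, 15.58 and 10.00, with an S/N of 13.55 on B16. On these probes both genes were plainly present in B16. Of the unnamed transcripts, mCG2960.3 gave 2.08, 3.26, 6.51 and 3.77 on its further probe, detected on B16 with an S/N of 4.25. That of mCG13194.2 was below an S/N of 3 on all 4 arrays. Of the 5 genes, Spp1 alone had a pair of probes that were both below detection on B16 and clearly detected on every passaged line, which is what chose them. For the other genes the array held a single probe, and whether that probe reads all transcripts of its gene was not tested.

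**Figure D5:**
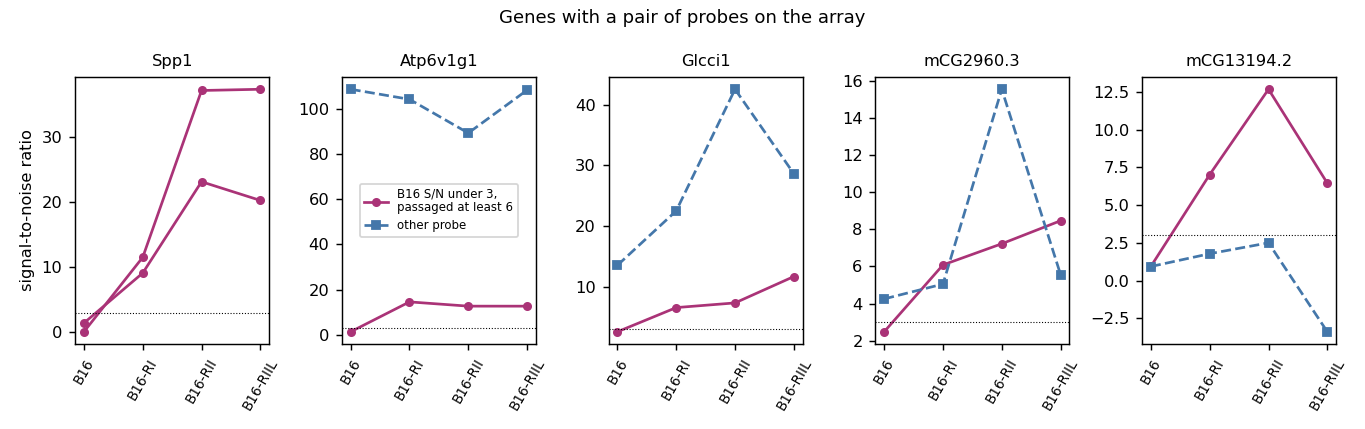
Signal-to-noise ratio on each array for the 5 genes with a pair of probes, with chosen probes in purple and further probes in blue, and a dotted line at 3. The further probes of Atp6v1g1 and Glcci1 stand at 108.67 and 13.55 on B16, far above the line, while both Spp1 probes start below it.

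Several probes were below detection on B16 although their B16 signal was not low. 0610025O11Rik had a B16 signal of 8.41 with an S/N of 1.40, whereas 336 of the 337 probes within 10% of that signal (99.7%) were detected, with a median S/N of 17.78. For Rp9h, with 8.22, 330 of 331 such probes were detected, for Gphn, with 5.92, 346 of 350, for Commd7, with 5.47, 353 of 360, and for AI427100, with 5.06, 328 of 336. These 5 genes were under 2-fold above B16 on at least 1 passaged array each, although Commd7 reached 2.39-fold on B16-RI and AI427100 2.19-fold on B16-RII. At the B16 signals of Pak4, Sgk3, D030070L09Rik, mCG114012.1, mCG10721.2, AK084119.1, mCG1362.2 and AK076997.1, 80.3% to 98.0% of such probes were also detected. By contrast Asc, Slc40a1, Spp1, ORF9 and D630003M21 had lower B16 signals, between 0.39 and 1.87. The 1.87 is that of the first Spp1 probe, with a B16 S/N of 0.06. Among probes of its set within 10% of 1.82 and of 1.92, 51.7% and 57.5% were detected on B16.

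Further genes of the same pathways were read from lists, and most of these genes were not among the 79 probes. Counts are over the listed genes on the array, which held 15 of 17 for iron, 7 of 11 for the inflammasome, 8 of 11 for R-spondin, 17 of 20 for interferon, 8 of 10 for aggrecanases and 12 of 15 for neural crest and glia, and all genes of the other pathway lists. The counts in each list stand beside 5.01%, 6.67% and 6.51% of all probes at least 2-fold above B16 on B16-RI, B16-RII and B16-RIIL, and 4.6%, 3.81% and 4.27% at least 2-fold below it. The lists are small and some hold a gene of the 79, so nothing is read from a count. Of the 5 genes of the SIBLING family to which osteopontin belongs, Spp1 alone was detected on any array. Ibsp, Dmp1, Dspp and Mepe were below detection on all 4. Of 9 osteopontin receptors, 5 were detected on B16, and 2 were at least 2-fold above B16 on B16-RI, 2 on B16-RII and 0 on B16-RIIL, with 2, 2 and 1 at least 2-fold below. Itgb1, the integrin beta 1 chain, gave 184.53 on B16, 192.83 on B16-RI, 270.14 on B16-RII and 233.66 on B16-RIIL. Cd44 gave 70.82, 88.95, 98.19 and 92.62. Itga9, the integrin alpha 9 chain, gave 3.07, 5.55, 7.74 and 5.87. These 3 receptors were detected in B16 already, and Itgb1 and Cd44 were less than 2-fold apart between it and any passaged line. Itga4, the integrin alpha 4 chain, gave 10.04, 2.10, 2.60 and 5.05 and was lower on every passaged line. Itga8, the integrin alpha 8 chain, gave 0.81, 3.07, 2.40 and 1.39, below detection on B16 with an S/N of 2.26 and detected on the passaged lines with 6.07, 5.24 and 3.11. Itgb5, the integrin beta 5 chain, gave 2.31, 0.75, 0.52 and 0.46 and was detected on B16 alone.

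In the iron family of Slc40a1, 8 of 15 genes were detected on B16 and 10, 10 and 12 on the passaged lines, 2, 2 and 5 were at least 2-fold above B16, and 1, 0 and 0 below. Tfrc, the receptor that brings in transferrin-bound iron, gave 5.48, 10.82, 19.14 and 9.17. Fth1, the ferritin heavy chain, gave 740.82, 1050.92, 1369.66 and 1166.18. Hamp, which encodes the hormone hepcidin, was below detection throughout. Of 7 inflammasome genes, 1, 2 and 3 were at least 2-fold above B16 on B16-RI, B16-RII and B16-RIIL, Pycard among them, and 1, 0 and 0 below. Gsdmd, the pore-forming gasdermin D, gave 4.6, 8.45, 14.86 and 23.41, above B16 on every passaged line and highest on B16-RIIL. By contrast, Nlrp3, a sensor that Pycard binds, was not detected on any array, and Casp1 was detected only on B16-RIIL. Nlrp3 and Casp1 thus did not share the pattern of Pycard.

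Of 8 R-spondin receptors and partners, 1, 1 and 2 were at least 2-fold above B16 and 1, 1 and 1 below. Rnf43, a ubiquitin ligase that removes Wnt receptors, gave 6.49 on B16 and was below detection on all 3 passaged lines, where its values of 0.27, 0.19 and 0.44 hold no order. Lrp6, a Wnt co-receptor, gave 4.21, 4.42, 7.90 and 5.2, and Axin2, a common Wnt target, was not detected. Of 8 immunity-related GTPases, the family of Ifi47, 2, 1 and 2 were at least 2-fold above B16 and 0 below, and Irgm1 gave 11.52, 7.14, 12.54 and 8.87. Of 17 interferon-stimulated genes, 1, 4 and 2 were above and 1, 0 and 0 below, with Cxcl10, a chemokine, at 61.62, 254.49, 288.88 and 213.04.

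Of 8 genes for aggrecanases, versicanases, their substrates and an inhibitor, 2, 3 and 2 were at least 2-fold above B16 and 1, 0 and 1 below. Adamts1 gave 19.70, 26.06, 29.80 and 25.63. Adamts4 gave 20.86, 10.06, 12.71 and 7.87. These relatives of Adamts5 were detected on B16, and Adamts4 was lower on the passaged lines. Bcan, which encodes brevican, a proteoglycan these enzymes cut, gave 3.52, 9.40, 8.84 and 10.65. Of 20 matrix genes, 2, 1 and 3 were at least 2-fold above B16 and 2, 1 and 1 below, with Sparcl1 at 23.70, 53.69, 110.12 and 111.57. Of the 6 superoxide and peroxide enzymes, Sod3 alone was at least 2-fold above B16, 0 were below, and the other 5 were detected on all 4 arrays. Of 12 neural crest and glial genes, 2, 3 and 4 were at least 2-fold above B16 and 0 below, with Mbp, a myelin protein, at 41.91, 99.08, 128.65 and 103.74.

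Markers of the melanocyte lineage were read on all 4 arrays. All 9 melanocyte markers measured were detected on every array, with summed normalized signals of 6447.62, 7658.09, 7930.02 and 7741.08. The sums came mostly from Tyrp1, Dct, Pmel and Slc45a2. Oca2 alone was at least 2-fold below B16 on a passaged line, with 5.23 on B16-RI against 15.25. Mc1r alone was at least 2-fold above it, with 58.21 on B16-RIIL against 26.98. Among markers of host cells, those of fibroblasts were detected in 2, 1, 2 and 3 of 7 cases, those of endothelium in 0, 0, 1 and 1 of 8, and those of lung epithelium in 1, 0, 0 and 1 of 5. Summed endothelial signals were 4.82, 7.0, 7.18 and 5.71, and those of lung epithelium 4.87, 5.91, 3.44 and 4.97. Summed fibroblast signals were 13.11, 19.84, 12.24 and 22.66. Of these, Col1a2 gave 6.32, 14.96, 7.4 and 16.66, while Col1a1 gave 3.5, 1.36, 2.22 and 2.41. The part of host cells in the values above was not tested. Detected probes numbered 14375, 13872, 14756 and 14855, with median raw signals of 434.5, 450.7, 618.7 and 554.3.

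The 43 genes matched in RefSeq lay on every mouse autosome but chromosome 19, with Magea4 on chromosome X. Chromosome 10 held 5 of them (11.6%, against 4.59% of the 14687 matched genes of the array) and chromosome 1 held 4 (9.3%, against 5.72%). The closest neighbours by gene order on GRCm38.p6 were Gabpa and Adamts5 on chromosome 16, with 3 protein-coding genes between them. Of these 3, App, the amyloid precursor, gave 29.29 on B16, 36.20 on B16-RI, 46.03 on B16-RII and 50.04 on B16-RIIL, Adamts1 was detected on all 4 arrays, as given above, and Cyyr1 was not detected on any. The genes between Gabpa and Adamts5 thus did not share their pattern.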

How the data were processed

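The authors deposited 1 table with raw and normalized intensity values, a signal-to-noise score and a flag score from the chemiluminescence analyzer for 33012 probes. Each normalized intensity that the authors deposited equals its raw intensity over 1 of 2 constants per array, although the methods name quantile normalization. The 16 columns of the 4 arrays that match a sample label were used. The 30 columns of second arrays match no sample label and were not used, nor were 14 columns of log2 values and ratios that the authors derived. The study describes duplicates, but the labels give 1 sample per line, so no test was run, and having 1 array per line limits how precise any value is.

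Members were found with the limits given above. A probe was counted as detected at an S/N of at least 3 with a flag of at most 5000. Normalized signals were set on the log2 scale with no pseudocount, and folds against B16 are the lower bounds described above. Background shares were counted over the 31894 probes with every flag within the limit or over the 10014 probes stated. Named are the first 30 probes with a symbol by their lowest passaged S/N and up to 6 more in each function group, which took in all 47, further probes of their genes, and probes next to each limit. The members, the function groups and the gene lists were chosen with earlier results of these data known, and the lists for iron, inflammasome, R-spondin, immunity-related GTPases, aggrecanases and superoxide dismutases were written after the members were known. In a list each gene is read by its brightest probe.

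Symbols were updated from the RefSeq gene table of GRCm38.p6, which matched 16186 of 17302 probes with a symbol and 44 of the 47. Probe coordinates are left out because the file gives no build. Results were recomputed with other S/N limits, other fold limits, each probe set centred, and raw signals that were quantile normalized or scaled to their median or their 75th percentile. Python 3.11.15, numpy 2.4.6, pandas 2.3.3 and matplotlib 3.10.9 were used.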

Additional observations from a re-analysis of the deposited data

How the results depend on the processing

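Of 105 summary values recomputed under the alternatives, 64 stayed and 41 moved, where a count moved by over 1.5 times or a median by at least 0.1 log2 units. For probes with a symbol, 0 differences of at least 2-fold from B16 changed direction. Of 564 recomputed values for single genes, 332 moved and 232 stayed. Over the scalings, the bound of a named gene shifted by between -0.537 and 0.163 log2 units. The count of 79 probes became 21 with a B16 S/N limit of 1, 36 with a limit of 2, 429 with a passaged limit of 3 and 23 with a passaged limit of 10. The median lower bound against B16 on B16-RI, B16-RII and B16-RIIL was 1.87, 1.85 and 1.75 log2 units when scaled to the 75th percentile, 1.66, 1.61 and 1.71 when each probe set was centred, and 2.19 on B16-RII when scaled to the median. Of the 5 probes at least 2-fold higher and 2 at least 2-fold lower on B16-RII than on B16-RI, the counts became 3 higher after quantile normalization, 8 and 1 after scaling to the median, 3 and 4 after scaling to the 75th percentile, and 3 and 4 after centring probe sets. The medians among the passaged lines lay near 0, and some changed sign. That of B16-RII from B16-RI, 0.234 in the deposited values, became 0.005, 0.003 and -0.031, that of B16-RIIL from B16-RI, 0.012, became -0.077, -0.059 and -0.031, and that of B16-RIIL from B16-RII, -0.085, became 0.026, 0.034 and 0.028, with quantile normalization, 75th percentile scaling and centring of probe sets. Each of these 3 also put 1 probe, in place of 0, at least 2-fold lower on B16-RIIL than on B16-RI. With a limit of 4-fold, 40, 42 and 39 probes were above B16, 0 were higher and 1 lower on B16-RII than on B16-RI, 1 was higher on B16-RIIL than on B16-RI, and 0 were higher and 0 lower on B16-RIIL than on B16-RII. With a limit of 1.5-fold, 22 were higher and 9 lower on B16-RII than on B16-RI, 12 and 8 on B16-RIIL than on B16-RI, and 8 and 11 on B16-RIIL than on B16-RII. Beyond what other limits do by construction, the cause of these moves was not tested.

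Of 141 differences from B16 for probes with a symbol, 114 were at least 2-fold, and 19 of these were under 2-fold in at least 1 scaling. No paired analysis was possible because the sample labels give 1 array per line. For the same reason no replicate was left out.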

Other observations

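The reverse of the rule, an S/N of at least 6 on B16 and under 3 on all 3 passaged arrays, was met by 165 probes, against 84 for the rule before genes were left out. Of the 79 probes, 51 had a flag of 0 on all 4 arrays, and the highest flag of any was 64. The deposited signals are scaled separately for 2 sets of probes, and 50 of the 79 (63.3%) lay in the first set, against 50.1% of all probes. The median log2 difference of B16-RII from B16-RI was 0.07 for the members in the first set and 0.35 for the 29 in the second, and over the 10014 probes 0.03 and 0.38.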
